A study of Mus musculus with 35 samples.

Results

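The genes described here are 10 genes of the oligodendrocyte lineage, Pdgfra, Cspg4, Gpr17, Bmp4, Bcas1, Neu4, Enpp6, Olig1, Olig2 and Sox10, which mark oligodendrocyte precursors and the first steps of their differentiation. They were chosen by name, with earlier results of these data known, and are 10 of the 21203 genes measured. RNA-seq libraries were made from left hemisphere tissue at the injection site of young adult male C57BL/6NCrl mice, with 1 library for each of 34 mice. All injured mice had a closed head injury and, on day 5, an injection into the left hippocampus of PBS, of naïve mesenchymal stromal cells (MSCs), or of MSCs transfected with synthetic interleukin-4 mRNA (IL-4 MSCs). They were examined at 1 or 3 weeks post-injury (wpi). Sham mice were uninjured and had no injection. Of these, 2 belonged to the 1-week series (mice 3 and 4) and 3 to the 3-week series (mice 1, 2 and 5). Each group had 5 mice apart from PBS at 3 wpi, with 4, because a mouse was left out by the authors for anomalous transcript counts. The MSCs were primary cells of 1 purchased lot from mice of the same strain, and their transcripts cannot be told apart from those of the host. In the sample names each injured group carries 1 leading number and Sham carries 2, 1 for each week, so anything that went with that number cannot be told apart from the injured group.

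Oligodendrocyte precursors are dividing glial cells that stay spread through the adult brain and replace myelinating oligodendrocytes. They carry the PDGF receptor alpha (Pdgfra) and the proteoglycan NG2 (Cspg4), which fibroblasts and pericytes also make. When they commit to differentiation they pass through a short stage marked by the receptor Gpr17 and by Bmp4, Bcas1, Neu4 and Enpp6, and the transcription factors Olig1, Olig2 and Sox10 are present throughout the lineage. After brain injury precursors react in the damaged region, and PDGF, FGF and BMP ligands are among the signals that act on them.

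The libraries held 29838423 to 41554322 estimated counts. The labels give the tissue as left cortex, but marker genes of neighbouring regions varied between mice. The mean log2 level of 13 striatum genes ran from 3.06 to 5.08 in Sham and from 3.89 to 6.60 in IL-4 MSCs at 3 wpi, and that of 8 hippocampus genes lay between 4.56 and 5.36 and between 3.28 and 5.08 in the same groups. In Sham the striatum level was 3.06 and 3.08 in the 1-week series and 4.79, 4.97 and 5.08 in the 3-week series. The hippocampus level was 5.36 and 5.09 in the former and 4.75, 4.63 and 4.56 in the latter. The week of the sham mice therefore cannot be told apart from the make-up of their tissue. Levels are given as CPM, the estimated count of a gene over its library total, scaled so that each library has the same sum. In tissue such as this, fewer cells of a type and less RNA per cell cannot be told apart.

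Upstream sequences are shown for 3 of the genes whose levels were called between 1 and 3 wpi, Pdgfra, Enpp6 and Olig2, because those calls were made in different treatments, IL-4 MSCs for Pdgfra and Olig2 and MSCs for Enpp6. They are the bases before the transcription start in RefSeq on build GRCm38.p6, plus strand, 5′ to 3′, and 6 of the 10 genes had such an entry. Capitals mark an E-box (CANNTG, the core bound by basic helix-loop-helix factors such as Olig1 and Olig2) or a SOX core (ACAAAG or ACAATG on either strand, the kind bound by Sox10).
Pdgfra, chr5:75152001-75152250: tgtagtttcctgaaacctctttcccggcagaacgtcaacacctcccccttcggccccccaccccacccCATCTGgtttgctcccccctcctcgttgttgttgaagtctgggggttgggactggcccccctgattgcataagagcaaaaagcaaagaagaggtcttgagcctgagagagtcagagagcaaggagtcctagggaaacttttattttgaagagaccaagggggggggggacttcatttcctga
Enpp6, chr8:46986637-46986886: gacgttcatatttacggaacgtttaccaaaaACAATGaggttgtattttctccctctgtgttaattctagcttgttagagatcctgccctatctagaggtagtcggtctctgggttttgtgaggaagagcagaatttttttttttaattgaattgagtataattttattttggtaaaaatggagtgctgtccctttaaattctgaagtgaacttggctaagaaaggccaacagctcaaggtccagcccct
Olig2, chr16:91225300-91225456: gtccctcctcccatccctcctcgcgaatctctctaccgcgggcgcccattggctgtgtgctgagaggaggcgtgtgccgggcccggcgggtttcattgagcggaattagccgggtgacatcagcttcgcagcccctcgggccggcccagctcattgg
The Pdgfra stretch held 1 E-box and no SOX core, the Enpp6 stretch held 1 SOX core and no E-box, and neither was found in the 157 bases shown for Olig2, which end where the GENCODE model of the gene begins. In the full 250 bases, 3 of the 6 genes had an E-box and 2 a SOX core. Olig2 was among the latter, with 1 SOX core outside the bases shown. Of 32851 mouse promoters of this length, 66.2% held an E-box and 25.2% a SOX core, and no remark on binding follows from these letters. Olig1 and Olig2 are neighbours on chromosome 16, with Olig2 at 91225457 to 91228677 and Olig1 at 91269772 to 91271933, both on the plus strand of GRCm38.

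In uninjured tissue the 10 genes spanned a wide range of abundance. On the authors' TPM scale, which is corrected for transcript length, the mean level in Sham was 169 ± 13.3 (SD, n = 5) for Bcas1, 106 ± 4.99 (SD, n = 5) for Olig1 and 41.6 ± 1.93 (SD, n = 5) for Sox10. The next levels were 25.4 ± 1.30 (SD, n = 5) for Olig2, 23.6 ± 0.723 (SD, n = 5) for Pdgfra and 23.2 ± 3.91 (SD, n = 5) for Gpr17, and the sham ranges of each of these overlapped with that of the next, so their order was not fixed. Cspg4 at 7.84 ± 0.612 (SD, n = 5), Enpp6 at 7.81 ± 0.812 (SD, n = 5) and Neu4 at 6.82 ± 0.896 (SD, n = 5) formed a lower set with ranges that overlapped likewise. Bmp4 was lowest at 3.27 ± 0.518 (SD, n = 5). The mean TPM order from Bcas1 to Olig1 to Sox10 at the top and Bmp4 at the bottom was found in all 7 groups. The plot of CPM by group shows each mouse.

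**Figure D1:**
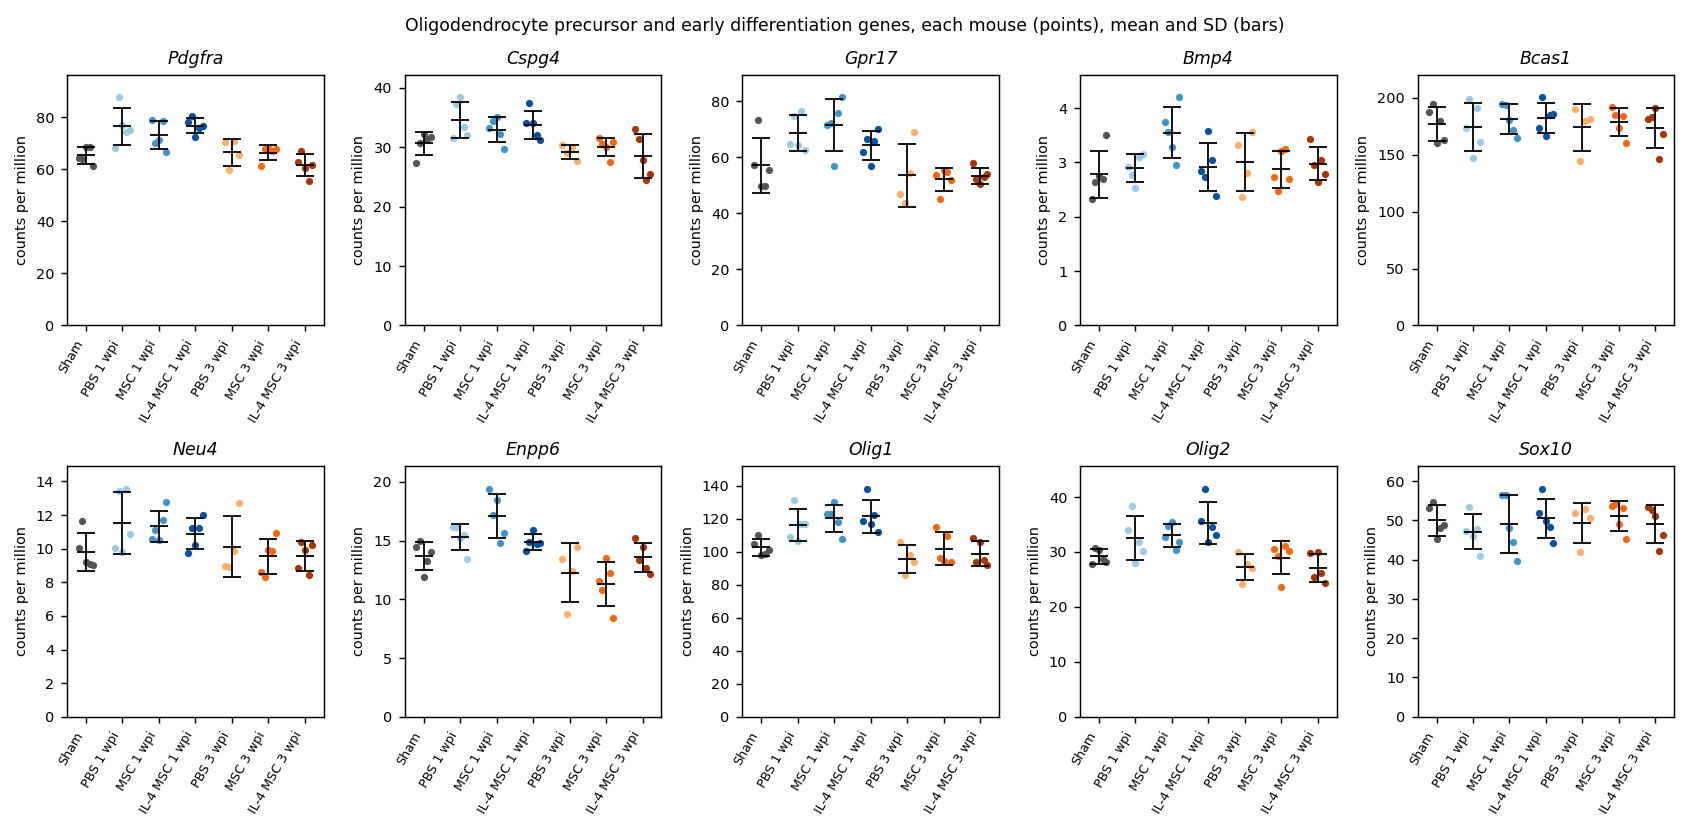
CPM (linear axis from 0) of the 10 genes in each of the 34 mice, by group; points are mice, bars the mean and SD (n = 5, PBS 3 wpi n = 4). Enpp6 in MSCs at 1 wpi lies between 14.8 and 19.4 and at 3 wpi between 8.40 and 13.5 without overlap, whereas Bcas1 and Sox10 overlap between all groups.

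Each gene was compared between groups with edgeR's quasi-likelihood test in 1 fit of all libraries, and a gene was counted as changed at a Benjamini-Hochberg adjusted p under 0.05 over the 17131 genes tested. At 1 wpi, 1 of the 10 genes was higher than in Sham in PBS, where 8.73% of all genes were higher, and 3 of the 10 were higher in IL-4 MSCs, where 18.4% were. In MSCs edgeR called 0 of the 10, against 17.8% of all genes in either direction, although 4 had an unadjusted p under 0.05 and DESeq2 called 2. These 3 comparisons share the sham mice. The count in PBS is near the share over all genes, and that in IL-4 MSCs was not tested against its share. Neither count is a result about the 10 as a set. The fitted difference was above 0 for 8 of the 10 genes in PBS (median log2 fold change 0.13, all genes -0.0054), for 8 in MSCs (0.15, all genes -0.0082) and for 7 in IL-4 MSCs (0.073, all genes -0.018).

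Between 1 and 3 wpi the genes that changed all fell. In MSCs 2 of the 10 fell, Gpr17 and Enpp6, where 4.93% of all genes fell. In IL-4 MSCs 4 of the 10 fell, Pdgfra, Cspg4, Olig1 and Olig2, where 16.6% of all genes did. In PBS Olig1 alone was called, where 4.90% of all genes fell, and 6 of the 10 had an unadjusted p under 0.05. The counts of called genes were not tested against these shares and are no result about the 10 as a set. The median log2 fold change of the 10 genes was -0.20 for PBS, -0.18 for MSCs and -0.15 for IL-4 MSCs, beside 0.0092, 0.012 and 0.025 over all genes. At 3 wpi edgeR called 0 of the 10 against Sham in any of the 3 injured groups. The share of all genes called there was 0.0292% for PBS, 1.15% for MSCs and 4.27% for IL-4 MSCs. An unadjusted p under 0.05 was reached by 0, 1 and 0 of the 10 genes in these groups, and DESeq2 called 0 in each. The plot of changes gives each gene with its interval.

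**Figure D2:**
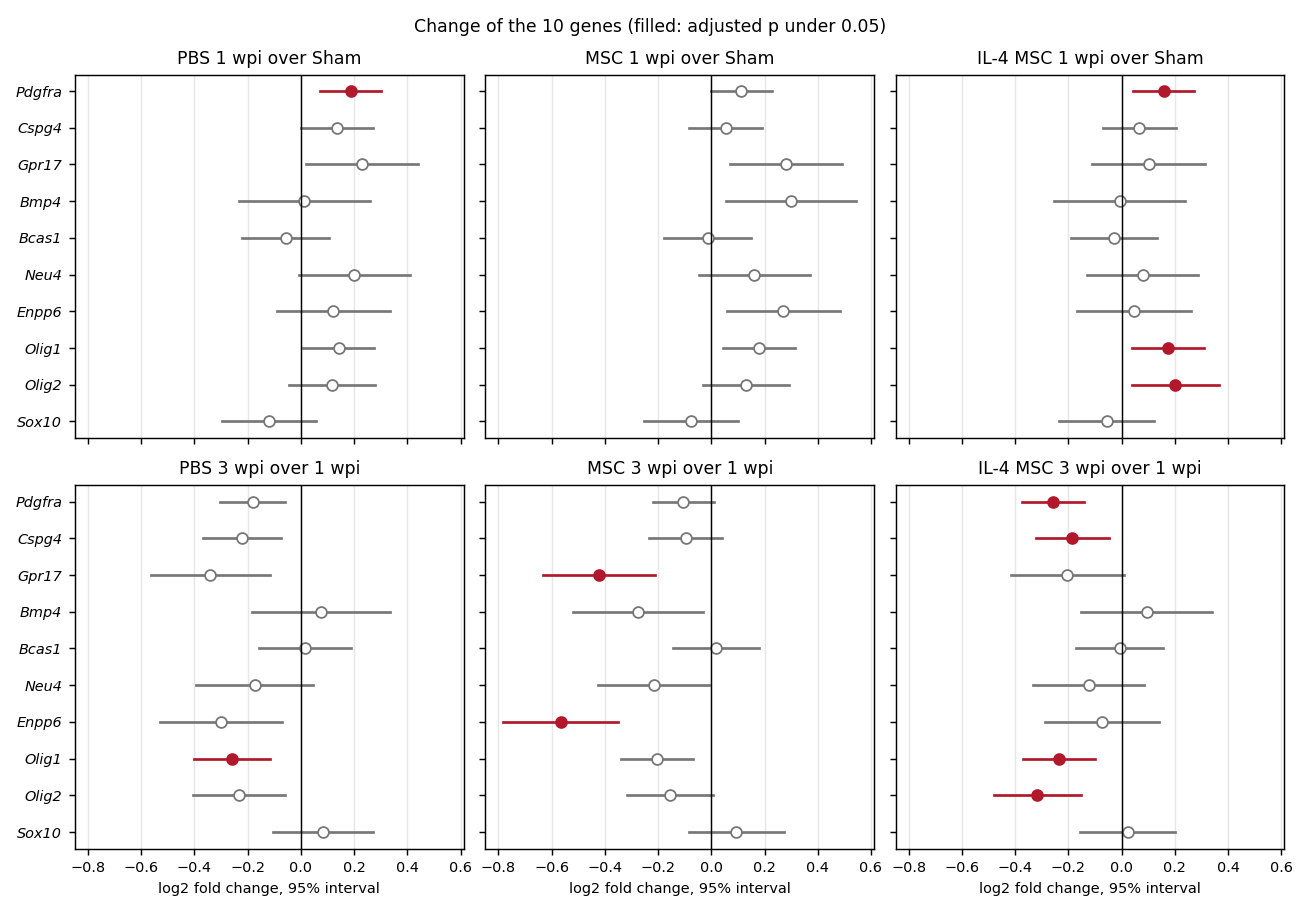
Log2 fold change (x axis) of the 10 genes (y axis) with its 95% interval, at 1 wpi over Sham (upper row) and at 3 wpi over 1 wpi (lower row) for PBS, MSCs and IL-4 MSCs; filled red symbols have an adjusted p under 0.05. The longest falls are those of Enpp6 (-0.57) and Gpr17 (-0.42) in MSCs, and Bcas1 and Sox10 stay near 0 in each panel.

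Pdgfra, the receptor through which PDGF drives division of precursors, rose in PBS and IL-4 MSCs at 1 wpi and fell to 3 wpi in IL-4 MSCs. Its CPM was 64.3, 64.1, 68.7, 68.6 and 61.3 in the 5 sham mice, 68.2, 87.7, 77.0, 74.5 and 74.9 in PBS at 1 wpi, and 78.4, 80.3, 72.6, 75.9 and 76.5 in IL-4 MSCs at 1 wpi. All 5 IL-4 MSC mice were above all 5 sham mice, whereas the lowest PBS mouse lay within the sham range. Among the 17131 genes tested, 20.6% were likewise higher in IL-4 MSCs without overlap, and after TMM scaling the Pdgfra values of both groups overlapped. Pdgfra rose by a log2 fold change of 0.19 (SE 0.056) in PBS (edgeR adjusted p = 0.0217) and of 0.16 (SE 0.056) in IL-4 MSCs (edgeR adjusted p = 0.0272). In MSCs at 1 wpi it read 78.9, 70.2, 71.4, 78.6 and 66.6 CPM, and the difference from Sham was 0.11 (95% interval -0.0026 to 0.23). The rise in PBS was lost without sham mouse 2 (edgeR adjusted p = 0.0580), sham mouse 5 (0.0731) or PBS mouse 2 (0.126), and that in IL-4 MSCs without sham mouse 5 (0.0526). Against the 2 sham mice of the 1-week series alone neither was called, with log2 fold changes of 0.095 and 0.082. The rise in PBS was also lost in a fit of these groups alone (edgeR adjusted p = 0.0589), and that in IL-4 MSCs with the mean level of 19 mature myelin genes as a covariate (0.11, edgeR adjusted p = 0.193). That mean log2 level was 6.5046 to 6.7960 in Sham and 6.8045 to 6.9517 in IL-4 MSCs at 1 wpi, without overlap. The covariate thus also takes out part of the group difference. The higher mean was not shared by most of the list, as the fitted difference from Sham lay below 0 for 14 of the 19 genes (median -0.090). The mean is moved by genes with large rises, such as Klk6, Apod and Trf, and is no plain measure of myelin.

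At 3 wpi Pdgfra in IL-4 MSCs had CPM values of 62.7, 67.1, 60.5, 55.5 and 61.7, all below the values of IL-4 MSCs at 1 wpi, as were those of 18.0% of all genes. It fell by 0.26 on the log2 scale (SE 0.056, edgeR adjusted p = 0.000544), and the call was kept when any 1 mouse was left out. In PBS at 3 wpi its CPM was 70.4, 59.6, 70.8 and 65.4, and in MSCs at 3 wpi 61.2, 68.0, 68.4, 66.9 and 67.8. Both sets overlapped their own groups at 1 wpi, with differences of -0.18 (95% interval -0.30 to -0.059) in PBS and -0.10 (95% interval -0.22 to 0.010) in MSCs. Without PBS mouse 1 of 1 wpi the fall in PBS was called as well (log2 fold change -0.22, edgeR adjusted p = 0.0241).

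Cspg4 encodes NG2, the surface proteoglycan of precursors. Its CPM in IL-4 MSCs was 34.1, 37.4, 34.0, 32.0 and 31.3 at 1 wpi and 33.1, 31.4, 27.9, 24.4 and 25.6 at 3 wpi, and mice 1 and 2 at 3 wpi lay within the range of 1 wpi. Cspg4 fell by 0.19 on the log2 scale (SE 0.067, edgeR adjusted p = 0.0329). The call was lost without mouse 2 of 1 wpi (edgeR adjusted p = 0.0750) and without mouse 4 (0.0831) or mouse 5 of 3 wpi (0.111). It was also lost when the striatum score (edgeR adjusted p = 0.114) or the myelin score (0.137) entered as a covariate, and in a fit of these groups alone (0.0818). In PBS its CPM was 31.5, 37.2, 38.4, 33.4 and 32.1 at 1 wpi and 30.3, 28.9, 29.9 and 27.7 at 3 wpi. These mice did not overlap, as was the case for 6.25% of all genes in that direction, but the difference of -0.22 (95% interval -0.37 to -0.076) missed the threshold (edgeR adjusted p = 0.0653). It passed without PBS mouse 1 (0.0384) or mouse 5 (0.0457) of 1 wpi. In the remaining groups Cspg4 had a mean CPM of 30.6 ± 1.94 (SD, n = 5) in Sham, 32.9 ± 2.09 (SD, n = 5) in MSCs at 1 wpi and 30.1 ± 1.54 (SD, n = 5) in MSCs at 3 wpi.

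Gpr17, a receptor that appears when precursors commit to differentiation and is lost as they mature, was 71.7, 72.1, 56.8, 75.8 and 81.4 CPM in MSCs at 1 wpi and 53.7, 45.1, 55.4, 54.8 and 52.0 CPM at 3 wpi. Every mouse at 3 wpi was below every mouse at 1 wpi, which held for 5.24% of all genes. Gpr17 fell by 0.42 on the log2 scale (SE 0.10, edgeR adjusted p = 0.00943), and the call was kept whichever mouse was left out. It was lost with the myelin covariate (-0.34, edgeR adjusted p = 0.0752). In PBS its CPM was 64.7, 74.8, 64.5, 76.6 and 62.8 at 1 wpi and 47.0, 43.7, 54.5 and 69.2 at 3 wpi, where only mouse 4 reached the earlier range. The difference was -0.34 (95% interval -0.56 to -0.12, edgeR adjusted p = 0.0675), and without that mouse it was -0.48 (edgeR adjusted p = 0.00403). In IL-4 MSCs its CPM was 62.0, 66.5, 56.9, 65.9 and 70.2 at 1 wpi and 57.9, 52.1, 50.3, 53.1 and 54.0 at 3 wpi, a difference of -0.20 (95% interval -0.42 to 0.0068).

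The comparison of Gpr17 with Sham turned on sham mouse 2. The sham mice had 57.2, 73.4, 49.7, 49.9 and 55.5 CPM, and mouse 2 lay well above the other 4. Against all 5 sham mice the log2 difference at 1 wpi was 0.23 (95% interval 0.020 to 0.44) in PBS, 0.28 (95% interval 0.069 to 0.49) in MSCs and 0.10 (95% interval -0.11 to 0.31) in IL-4 MSCs. Without sham mouse 2 the difference was called in PBS (0.33, edgeR adjusted p = 0.0252) and in MSCs (0.38, edgeR adjusted p = 0.00691), and in MSCs also without MSC mouse 3 (0.36, edgeR adjusted p = 0.0155). Against the 2 sham mice of the 1-week series alone, Gpr17 was called higher in PBS (0.40, edgeR adjusted p = 0.0419) and in MSCs (0.46, edgeR adjusted p = 0.0151).

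Enpp6, a choline phosphodiesterase found in newly forming oligodendrocytes, had the longest change of the 10 genes. Its CPM in MSCs was 19.4, 17.2, 18.4, 14.8 and 15.6 at 1 wpi and 11.5, 10.8, 13.5, 12.3 and 8.40 at 3 wpi. The groups did not overlap, which held for 5.24% of all genes in that direction. Enpp6 fell by 0.57 on the log2 scale (SE 0.11, edgeR adjusted p = 0.000622), a level 0.675 times that at 1 wpi, and it was called in every setting tried. In IL-4 MSCs Enpp6 was 14.1, 14.9, 15.9, 14.7 and 14.8 CPM at 1 wpi and 15.2, 13.4, 14.4, 12.6 and 12.1 CPM at 3 wpi. These groups overlapped, and the difference was -0.073 (95% interval -0.29 to 0.14). The gap from MSCs to IL-4 MSCs was tested for a change with time, and for Enpp6 its log2 value at 1 wpi minus that at 3 wpi was -0.49 (SE 0.15, edgeR adjusted p = 0.0356), 1 of 10 genes where 1.90% of all genes passed in that direction. That call was lost without any 1 of 13 of the 20 mice, namely MSC mice 1, 2 and 3 or IL-4 MSC mice 1, 2, 4 and 5 of 1 wpi, or MSC mice 1, 2 and 5 or IL-4 MSC mice 1, 3 and 4 of 3 wpi (edgeR adjusted p at most 0.103). It was also lost when the striatum score entered as a covariate (edgeR adjusted p = 0.121). Within the 34 libraries Enpp6 had an r of 0.29 with the striatum score, and 0.53 once group means were removed. With the covariate the value was -0.35.

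In PBS the Enpp6 values were 16.2, 16.1, 15.2, 15.5 and 13.5 CPM at 1 wpi and 13.4, 8.76, 12.4 and 14.5 CPM at 3 wpi, and mouse 2 at 3 wpi was the lowest by a wide margin. The difference was -0.30 (95% interval -0.53 to -0.071). The sham mice had 14.5, 14.9, 11.9, 13.2 and 14.0 CPM. Against them MSCs differed by 0.27 at 1 wpi (95% interval 0.058 to 0.48) and by -0.30 at 3 wpi (95% interval -0.51 to -0.078), and neither passed the threshold with edgeR (adjusted p = 0.0703 and 0.226). The first passed without MSC mouse 4 (0.32, edgeR adjusted p = 0.0411).

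Bcas1, Neu4 and Bmp4 were not called in any of the 15 comparisons by the edgeR fit of all libraries without a covariate. Bcas1, a protein of early myelinating oligodendrocytes, had the smallest ratio between its highest and lowest group mean, 1.05, from 174 CPM in IL-4 MSCs at 3 wpi to 182 CPM in IL-4 MSCs at 1 wpi. Its differences from Sham at 1 wpi were -0.057 (95% interval -0.22 to 0.11) in PBS, -0.014 (-0.18 to 0.15) in MSCs and -0.029 (-0.19 to 0.13) in IL-4 MSCs. Neu4, a sialidase, had mean CPM values of 9.81 ± 1.12 (SD, n = 5) in Sham, 11.5 ± 1.84 (SD, n = 5) in PBS, 11.3 ± 0.933 (SD, n = 5) in MSCs and 10.9 ± 0.919 (SD, n = 5) in IL-4 MSCs at 1 wpi. At 3 wpi the means of Neu4 were 10.1 ± 1.80 (SD, n = 4), 9.53 ± 1.05 (SD, n = 5) and 9.57 ± 0.890 (SD, n = 5), and in all 3 treatments the mean was lower than at 1 wpi. The largest of these differences, in MSCs, was -0.22 (95% interval -0.43 to -0.0071, edgeR adjusted p = 0.257).

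Bmp4, a BMP ligand made by committed precursors, was highest in MSCs at 1 wpi, where the mice had 3.74, 3.56, 3.28, 2.95 and 4.20 CPM. The sham mice had 2.33, 2.64, 2.74, 2.69 and 3.50 CPM and overlapped them only through mouse 5. The log2 difference was 0.30 (95% interval 0.057 to 0.54, edgeR adjusted p = 0.0817). It passed the threshold without sham mouse 5 (0.39, edgeR adjusted p = 0.0219) or MSC mouse 4 (0.36, edgeR adjusted p = 0.0435). In the other 5 injured groups the mean of Bmp4 lay between 2.87 and 3.01 CPM. Bmp4 was the least abundant of the 10 genes and its 95% intervals were the widest of theirs in each comparison.

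Olig1 and Olig2, the basic helix-loop-helix factors of the lineage, both rose in IL-4 MSCs at 1 wpi and fell to 3 wpi. Olig1 was 105, 110.3, 97.9, 98.5 and 101 CPM in Sham, 118, 138, 117, 122 and 112 CPM in IL-4 MSCs at 1 wpi and 108, 93.5, 106, 94.7 and 91.8 CPM at 3 wpi. Olig2 was 27.8, 30.8, 30.4, 28.8 and 28.1 CPM in Sham, 35.6, 41.5, 31.7, 34.5 and 33.1 CPM in IL-4 MSCs at 1 wpi and 29.8, 25.5, 29.9, 26.1 and 24.4 CPM at 3 wpi. For both genes the 5 mice at 1 wpi were above the sham mice and above the mice at 3 wpi. The same held for 20.6% of all genes against Sham and for 18.0% against 3 wpi. After TMM scaling the values of Olig1 and Olig2 overlapped with Sham but not with 3 wpi. Against Sham the rise was 0.17 (SE 0.066, edgeR adjusted p = 0.0398) for Olig1 and 0.20 (SE 0.080, edgeR adjusted p = 0.0451) for Olig2. To 3 wpi Olig1 fell by 0.24 (SE 0.066, edgeR adjusted p = 0.00582) and Olig2 fell by 0.32 (SE 0.080, edgeR adjusted p = 0.00229) on the log2 scale. The falls were called whichever mouse was left out, but not with the mean level of 19 mature myelin genes as a covariate (Olig1 -0.073, edgeR adjusted p = 0.335; Olig2 -0.19, edgeR adjusted p = 0.0878). The rise of Olig1 was lost without sham mouse 4 (edgeR adjusted p = 0.0871) or IL-4 MSC mouse 2 (0.120), and the rise of Olig2 without sham mouse 1 (0.0529), 4 (0.0779) or 5 (0.0678) or IL-4 MSC mouse 1 (0.0560) or 2 (0.152). The myelin covariate ended both rises (Olig1 0.036, edgeR adjusted p = 0.644, and Olig2 0.094, edgeR adjusted p = 0.414), as did the striatum covariate (edgeR adjusted p = 0.0719 and 0.0602). The mean log2 level of the myelin genes was 6.8045 to 6.9517 in IL-4 MSCs at 1 wpi. It was lower without overlap in Sham (6.5046 to 6.7960) and in IL-4 MSCs at 3 wpi (6.4399 to 6.7484). The myelin covariate thus also takes out part of these group differences, and a lost call does not show their cause. Most of the list did not share its higher mean over Sham. From 1 to 3 wpi in IL-4 MSCs the fitted difference lay below 0 for 9 of the 19 genes (median 0.016). The rise of Olig2 was also lost against the sham mice of the same week (edgeR adjusted p = 0.214) and without the filter on low counts (0.0544).

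Olig1 also fell between 1 and 3 wpi in PBS, from 109, 131, 106, 117 and 117 to 106, 85.6, 98.0 and 93.5 CPM. There was no overlap, which held for 6.25% of all genes in that direction. The fall was 0.26 on the log2 scale (SE 0.070, edgeR adjusted p = 0.0227), and it was lost without mouse 2 of 1 wpi (0.0999) or mouse 2 (0.141) or mouse 4 (0.0582) of 3 wpi. It was also lost with the myelin covariate (-0.16, edgeR adjusted p = 0.0600) and in a fit of these groups alone (edgeR adjusted p = 0.0551). In MSCs Olig1 was 123, 123, 130.3, 118 and 107 CPM at 1 wpi and 115, 96.0, 94.2, 109.6 and 93.9 CPM at 3 wpi. Mouse 1 of 3 wpi was the highest of its group and overlapped the earlier mice. The difference of -0.21 (95% interval -0.34 to -0.070, edgeR adjusted p = 0.0602) passed without that mouse (edgeR adjusted p = 0.0154), without mouse 4 of 3 wpi (0.0352) or without mouse 5 of 1 wpi (0.0293). Olig1 in MSCs at 1 wpi against Sham differed by 0.18 (95% interval 0.045 to 0.32, edgeR adjusted p = 0.0564) and passed without sham mouse 2 (0.0463) or MSC mouse 5 (0.0262). Olig2 differed between 1 and 3 wpi by -0.23 (95% interval -0.41 to -0.061) in PBS and by -0.16 (95% interval -0.32 to 0.0070) in MSCs, neither past the threshold.

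Sox10, the factor required for terminal differentiation of the lineage, was not called in any comparison by the edgeR fit without a covariate. Its mean CPM was 50.0 ± 3.84 (SD, n = 5) in Sham, 47.1 ± 4.41 (SD, n = 5), 49.0 ± 7.35 (SD, n = 5) and 50.5 ± 5.07 (SD, n = 5) in the PBS, MSC and IL-4 MSC groups of 1 wpi, and 49.3 ± 5.02 (SD, n = 4), 51.1 ± 3.80 (SD, n = 5) and 49.2 ± 4.84 (SD, n = 5) at 3 wpi. All groups overlapped. Between 1 and 3 wpi the difference was 0.084 (95% interval -0.10 to 0.27) in PBS, 0.095 (-0.083 to 0.27) in MSCs and 0.022 (-0.16 to 0.20) in IL-4 MSCs.

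Between the treatments at the same week, which asks whether MSCs or their IL-4 altered these genes, edgeR called 0 of the 10 in each of 6 comparisons. At 1 wpi the share of all genes called was 0.123% for MSCs against PBS, 17.4% for IL-4 MSCs against PBS and 8.69% for IL-4 MSCs against MSCs. At 3 wpi it was 0.0817%, 2.94% and 3.47% for the same pairs. In that order the 6 comparisons had 1, 0, 2, 0, 0 and 1 of the 10 genes at an unadjusted p under 0.05, and DESeq2 called 0 in each. Those genes were Bmp4 in MSCs over PBS at 1 wpi (0.29, 95% interval 0.043 to 0.53), and Bmp4 (-0.31, -0.55 to -0.065) and Enpp6 (-0.23, -0.44 to -0.014) in IL-4 MSCs over MSCs at 1 wpi. At 3 wpi it was Enpp6 in IL-4 MSCs over MSCs (0.27, 95% interval 0.050 to 0.48). With the mean of 19 mature myelin genes as a covariate, the Enpp6 differences passed at both weeks and in opposite directions (-0.26 at 1 wpi, edgeR adjusted p = 0.0306, and 0.28 at 3 wpi, edgeR adjusted p = 0.0440). Without it they did not (edgeR adjusted p = 0.211 and 0.164), nor in any other setting tried. That mean was measured after treatment and had an r of 0.75 with Enpp6 over the libraries, which limits what the adjusted differences show. For Pdgfra the interval of IL-4 MSCs over PBS at 1 wpi was -0.14 to 0.084, and for Olig2 it was -0.078 to 0.25. The change with time of the difference from PBS was called for 0 of the 10 genes both for MSCs and for IL-4 MSCs by edgeR and by DESeq2, with 0 of the 10 at an unadjusted p under 0.05, beside 0% and 4.72% of all genes.

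Further genes of the lineage mostly missed the threshold at 1 wpi. They come from lists compiled from general knowledge, but with earlier results of these data known. Over all genes the share called in either direction was 13.8% in PBS and 37.0% in IL-4 MSCs, beside the 17.8% given for MSCs, and counts of a list near these shares are no result about that list. Of 15 other precursor genes, edgeR called 1 higher and 0 lower in PBS than in Sham. The counts were 1 and 2 in MSCs, and 1 and 5 in IL-4 MSCs. The higher gene was in each case Vcan, which encodes versican, a matrix proteoglycan (log2 fold change 0.28 for PBS, 0.43 for MSCs, 0.54 for IL-4 MSCs). Susd5 and Pcdh15 were lower in IL-4 MSCs, by log2 fold changes of -0.33 and -0.27. Of 14 genes of committed precursors and newly formed oligodendrocytes, 2 were higher in PBS and 2 in MSCs, and in IL-4 MSCs 1 was higher and 2 lower. Itpr2, an inositol trisphosphate receptor, was among the higher genes of all 3 (0.32, 0.32 and 0.34), whereas Prom1 was lower in IL-4 MSCs (-0.28). Of 19 mature myelin genes 4 were higher in each injured group at 1 wpi and 1 was lower in IL-4 MSCs. Most of the list did not rise. The fitted difference lay below 0 for 14 of the 19 with IL-4 MSCs, 13 with PBS and 9 with MSCs. The list median was -0.090 for IL-4 MSCs, -0.046 for PBS and 0.015 for MSCs, beside -0.018, -0.0054 and -0.0082 over all genes. The largest rises were those of Klk6, a secreted protease (1.76 in IL-4 MSCs), Apod, a lipid carrier (1.46), and Trf, transferrin (0.69), which other cells also make. Mbp, a main protein of compact myelin, was not among the changed genes (log2 fold change in IL-4 MSCs -0.13, 95% interval -0.27 to 0.016).

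Several signals that act on precursors were higher at 1 wpi. Of 7 growth factor ligands, edgeR called 3 higher for PBS against Sham, 2 for MSCs and 5 for IL-4 MSCs, and 0 lower. In IL-4 MSCs the leading ligands were Lif (1.51), Cntf (1.20) and Fgf2 (0.95). Of the PDGF ligands, Pdgfc rose by 0.49 (SE 0.066, edgeR adjusted p = 3.85e-07), and for Pdgfa, the main ligand of Pdgfra on precursors, the difference was -0.044 (95% interval -0.12 to 0.033). Of 15 other genes of BMP signalling, 1 was higher in PBS and 2 in MSCs, and in IL-4 MSCs 3 were higher and 2 lower. Chrdl1, a BMP antagonist, was higher in all 3 groups (0.40, 0.50 and 0.67). Id3, a target of BMP receptors, was higher in MSCs (0.43) and IL-4 MSCs (0.52), and Id1 was not called (IL-4 MSCs 0.19, 95% interval -0.011 to 0.40). Of 8 genes of the Notch and Wnt pathways, 1, 1 and 2 were higher and 2, 1 and 2 lower in PBS, MSCs and IL-4 MSCs. The shares of all genes called in either direction (13.8%, 17.8% and 37.0%) stand beside these counts too, and counts near them are no result about a list. Apcdd1, a Wnt inhibitor, was higher in all 3 (0.30, 0.34 and 0.53), and Hes5, a Notch target, was lower in PBS (-0.37) and IL-4 MSCs (-0.46).

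Between 1 and 3 wpi, Vcan fell in all 3 treatments (log2 fold change -0.31 for PBS, -0.45 for MSCs, -0.48 for IL-4 MSCs), and it was the only one of the 15 other precursor genes to fall, while Pcdh15 rose in IL-4 MSCs (0.23). Of all genes 4.90%, 4.93% and 16.6% fell in PBS, MSCs and IL-4 MSCs, and list counts near these shares are no result about a list. In either direction 944, 1054 and 5654 of the 17131 genes tested were called. Of the 14 genes of committed precursors and newly formed oligodendrocytes 2 fell in PBS and 1 in MSCs, and in IL-4 MSCs 3 fell and 2 rose, among the latter Prom1 (0.30). Of the 19 mature myelin genes 4, 3 and 4 fell, led by Klk6 (-0.88, -1.15 and -1.80). Of the 7 ligands 5 fell in IL-4 MSCs, led by Lif (-1.76) and Cntf (-0.91), and edgeR called 0 in PBS and 0 in MSCs. At 1 wpi 4 of these ligands were raised in IL-4 MSCs over PBS and 4 over MSCs, with Lif at 0.83 and 0.95. Of all genes 17.4% and 8.69% were called there in either direction, and the ligand counts were not tested against these shares. In these comparisons edgeR called 0 of the 10 lineage genes without a covariate.

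Markers of dividing cells, and some of those of fibroblasts, which also make Pdgfra, were higher in the same comparisons. The 10 proliferation genes were all higher than in Sham at 1 wpi in each injured group, with a median log2 fold change of 2.18 for PBS, 2.27 for MSCs and 2.83 for IL-4 MSCs, and all 10 fell from 1 to 3 wpi in each treatment. Mki67 ran from 2.74 to 7.17 CPM in Sham and from 21.5 to 35.2 CPM in IL-4 MSCs at 1 wpi. Of 9 fibroblast genes 2 were higher in PBS at 1 wpi, 4 in MSCs and 5 in IL-4 MSCs, with 1 lower in the latter, and Col1a1 rose by 0.97, 2.60 and 2.18. The mean log2 level of the fibroblast genes was 3.00 to 3.60 in Sham, 3.50 to 3.91 in PBS, 4.04 to 4.58 in MSCs and 4.12 to 4.31 in IL-4 MSCs at 1 wpi. Of 8 pericyte genes 0 were called in PBS by edgeR, 1 was higher in MSCs, and IL-4 MSCs had 3 higher and 2 lower. Their mean level was 3.95 to 4.08 in Sham and 4.25 to 4.51 in IL-4 MSCs at 1 wpi, and Pdgfrb differed there by 0.13 (95% interval -0.025 to 0.28). No listed marker of either cell type was at 0 in its group median. Of 10 astrocyte genes 8 were higher in each of PBS and MSCs, and in IL-4 MSCs 9 were higher and 1 lower. Of 12 macrophage and microglia genes the counts were 9, 9 and 11. Against Sham, edgeR called 13.8% of tested genes with PBS, 17.8% with MSCs and 37.0% with IL-4 MSCs at 1 wpi, counting both directions. The marker counts were not tested against these shares. Counts close to a share, such as those of fibroblast genes in PBS and pericyte genes in MSCs, are no result about that cell type. Gfap rose by 2.64 in IL-4 MSCs, and Arg1 stood between 108 and 169 CPM beside 0.0915 to 0.289 CPM in Sham. The part of these cells in the levels of Pdgfra and Cspg4 was not tested.

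**Figure D3:**
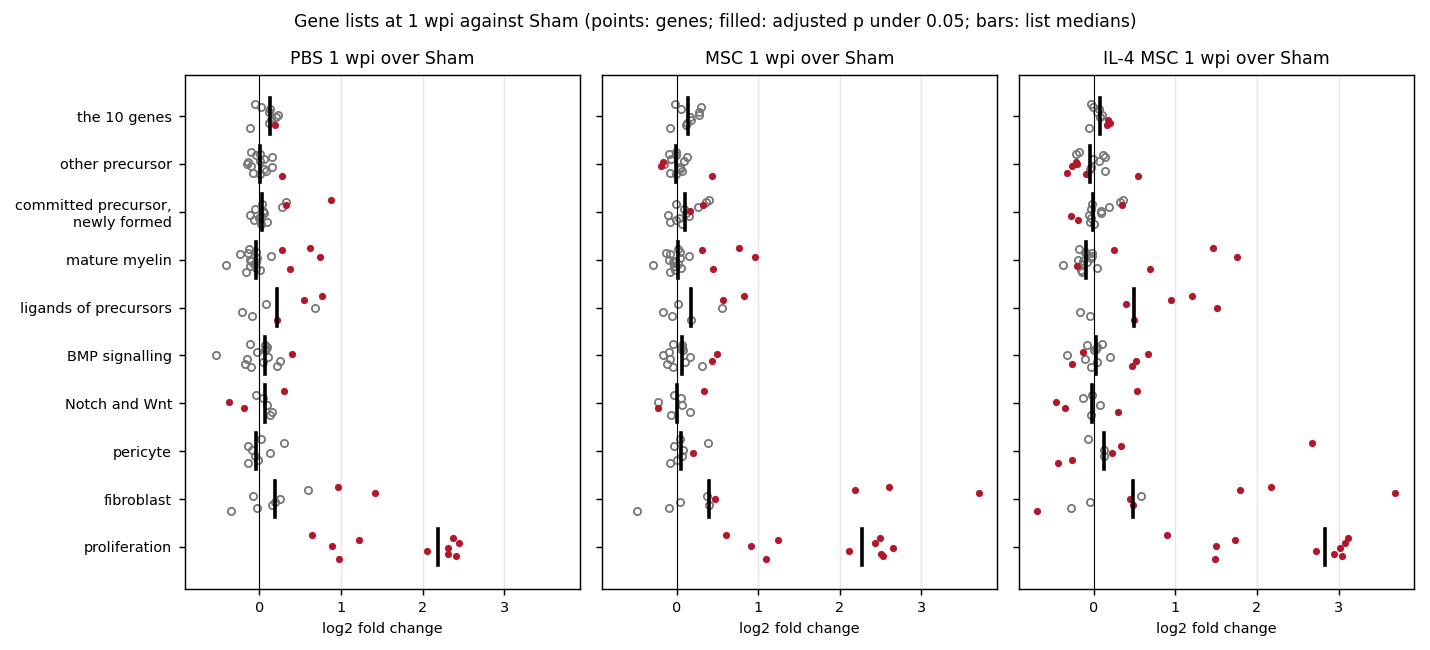
Log2 fold change over Sham at 1 wpi (x axis) of each gene of 10 lists (y axis) in PBS, MSCs and IL-4 MSCs; points are genes, filled where the adjusted p is under 0.05, and bars are list medians. All 10 proliferation genes are filled in each panel, while the 10 lineage genes lie close to 0, with 1, 0 and 3 filled.

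Across libraries some of the 10 genes ran closely in pairs. Pearson's r of log2 CPM over the 34 libraries, which share groups, depth and composition, was 0.75 for Pdgfra and Cspg4, 0.82 for Gpr17 and Neu4, 0.89 for Olig1 and Olig2 and 0.77 for Bcas1 and Sox10. The median over the 45 pairs was 0.43. After the group means were removed, these 4 pairs had r values of 0.47, 0.75, 0.76 and 0.79, and the median was 0.23. Gpr17 and Sox10, in contrast, had an r of 0.0070, and Bmp4 stood nearest to Enpp6 (0.48). The mean level of the 19 mature myelin genes had an r of 0.76 with Bcas1, 0.86 with Olig1, 0.75 with Enpp6 and 0.48 with Cspg4. These values describe the libraries and were not tested.

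**Figure D4:**
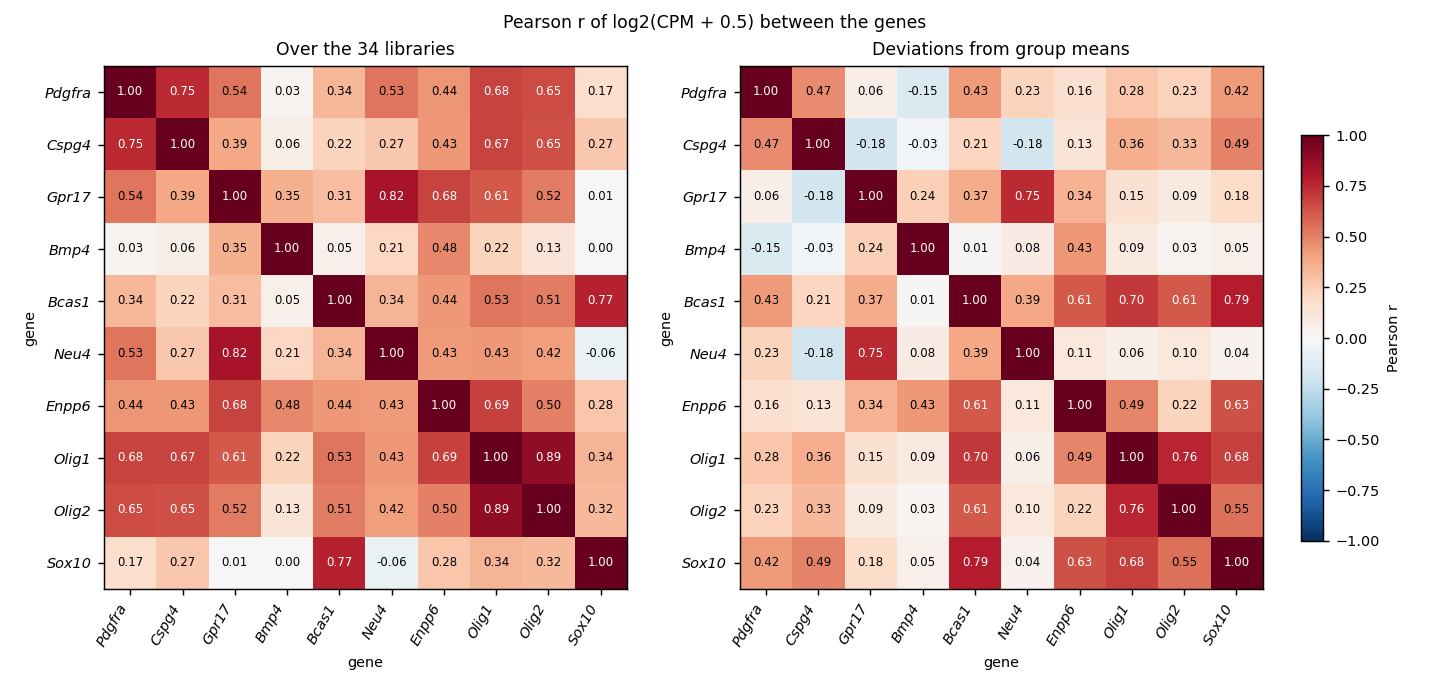
Pearson's r between the 10 genes (both axes) on log2(CPM + 0.5) over the 34 libraries (left) and of deviations from group means (right); colour and number give r. Olig1 with Olig2 and Gpr17 with Neu4 have the highest values on the left, and Bcas1 with Sox10 the highest on the right.

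Outside the 10, the tested genes whose levels ran most like each of them over the 34 libraries were looked up. For Pdgfra they were Tubb2b (r = 0.88), Mcm6 (0.87) and Lrig1 (0.87), and for Cspg4 Sdc3 (0.80), Galns (0.79) and Fabp7 (0.78). For Gpr17 they were Lonrf3 (0.77), Tns3 (0.77) and Sema4d (0.76), for Neu4 Itpk1 (0.78) and Rab23 (0.75), and for Enpp6 Pacs2 (0.78), Gsn (0.78) and Ankib1 (0.77). Bcas1 ran with Mbp (0.83), Mag (0.80) and Nacc2 (0.78), of which the first pair are myelin proteins. Olig1 ran with Gsn (0.91), Metrn (0.90) and Gltp (0.89), Olig2 with Pcyt1a (0.82), Snx18 (0.81) and Itpr2 (0.81), and Sox10 with Gab1 (0.86), Adamts4 (0.84) and Sema6d (0.81). Bmp4 had the lowest likeness to any gene, with Padi2 (0.56), Acacb (0.55) and Ptgr2 (0.55).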

How the data were processed

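RNA was sequenced from 34 mice in 7 groups (of 35 labelled samples, 1 was not analysed here). Per the labels, reads were trimmed with cutadapt 2.4 and quantified by the authors with kallisto 0.46. The deposited tables hold estimated counts per gene and the authors' TPM. Estimated counts were rounded, and levels are CPM of the library total. Columns of the authors' own 21 comparisons (p, q and fold change) were not used. Genes passing filterByExpr (17131 of 21203) were TMM-scaled and tested with edgeR 4.0.16 (R 4.3.3, quasi-likelihood) in 1 fit of all groups, with Benjamini-Hochberg adjustment within each comparison and 95% intervals from log2 fold change and SE. DESeq2 1.42.0 was an alternative. The code was tested on simulated data. All 10 genes are named. Of other lists, counts are given and up to 3 called genes with the largest change, plus Pdgfa, Pdgfc, Id1, Id3, Gfap, Mbp, Mki67, Col1a1, Pdgfrb and Arg1. Likeness is Pearson's r of log2(CPM + 0.5), the 3 highest being named, of which 1 is not reported here. Sham mice of both weeks formed 1 group. The 10 genes and the lists were chosen with earlier results of these data known. Groups and mice come from the labels, and separate mice are the replicates. Depth was 29838423 to 41554322 estimated counts per library. The intervals give the uncertainty of a difference between group means, and SDs and ranges give the spread between mice. Gene positions are from GENCODE on GRCm38.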

Additional observations from a re-analysis of the deposited data

Results flagged for a closer look

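In 3 of the 70 sets of values (10 genes in 7 groups) checked with Dixon's criterion, 1 mouse lay far from the others of its group. Chance sets apart about 1 in 20 such groups. Pdgfra was 61.2 CPM in mouse 1 of MSCs at 3 wpi, and the other 4 mice lay between 66.9 and 68.4 CPM. Cspg4 was 27.3 CPM in sham mouse 1, and the others lay between 30.8 and 32.1 CPM. Olig2 was 23.7 CPM in mouse 3 of MSCs at 3 wpi, and the others lay between 29.3 and 31.1 CPM. No call of the same gene was lost or gained without the mouse named for it.

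The difference of Enpp6 between IL-4 MSCs and MSCs passed the test for a change with time, with a log2 value at 1 wpi minus 3 wpi of -0.49 by edgeR's interaction test (adjusted p = 0.0356). The call was lost in 13 of the 20 fits without 1 mouse, without TMM (adjusted p = 0.0520) and with the striatum covariate (0.121). The mean of MSCs was 17.1 CPM at 1 wpi and 11.3 CPM at 3 wpi, and that of IL-4 MSCs 14.9 and 13.6 CPM.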

How the results depend on the processing

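Of the 12 called changes, 0 reversed in any alternative. The falls of Enpp6 in MSCs and of Pdgfra in IL-4 MSCs were called in all of them. Without TMM (added after seeing the data) 4 genes instead of 0 were called in MSCs at 1 wpi against Sham, 3 instead of 1 in PBS between weeks, and 0 instead of 1 in the change with time between IL-4 MSCs and MSCs. For the same 3 comparisons the striatum covariate gave 3, 2 and 0, and it gave 1 instead of 3 in IL-4 MSCs at 1 wpi against Sham. DESeq2 called 2 in MSCs at 1 wpi and 3 in PBS between weeks, and a fit of only the compared groups 2 and 0, with 0 instead of 1 in PBS at 1 wpi against Sham. The myelin covariate gave 2 in PBS and 2 in MSCs at 1 wpi against Sham, 0 in PBS between weeks, and 1 (Enpp6) at each week for IL-4 MSCs against MSCs. With sham mice of the same week only, 1 gene was called for MSCs and 1 for IL-4 MSCs at 1 wpi, and in PBS Gpr17 was called in place of Pdgfra. Same-numbered mice did not deviate together as a rule (71 pairs, r from -0.46 to 0.40) and were not treated as pairs. In MSCs against PBS at 1 wpi r was 0.022 to 0.40, and whether the numbers pair mice was not settled. With the replicate block 1 gene was called in MSCs at 1 wpi and 2 in PBS between weeks, other counts staying within 1.5 times. With the myelin covariate the counts in IL-4 MSCs, against Sham at 1 wpi and between weeks, stayed within that bound only through other genes. Lost there were Pdgfra, Olig1 and Olig2 in the former, and Cspg4, Olig1 and Olig2 in the latter. Leaving out 1 mouse gave against Sham at 1 wpi 0 to 1 called genes for PBS, 0 to 2 for MSCs and 1 to 3 for IL-4 MSCs, and between weeks 0 to 3, 2 to 3 and 3 to 4, 0 to 1 in the change with time between IL-4 MSCs and MSCs, and 0 in the rest. Most changes were under 0.5 on the log2 scale, and causes of the shifts were not tested.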
